A study of Mus musculus with 20 samples.

Results

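The macrophage genes and the genes of complement C1q measured in the salivary glands (SGs) of C57BL/6J mice are described here at ages of 4 to 16 weeks. They are 10 of 18194 genes: Csf1r, Adgre1, Cd68, Lyz2, Mrc1, Cd163, Cx3cr1, C1qa, C1qb and C1qc. A probe set of the array was taken for a gene where the annotation gave it that symbol alone, and where a gene had several the one with the highest mean over all arrays stood for it. The 10 genes had 15 such probe sets, 3 each for Csf1r and C1qb, 2 for Cx3cr1 and 1 for each of the others. They were chosen by name, for the cells and the protein they are known to mark, with earlier results of these data known.

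SGs free of lymph nodes came from 5 mice each aged 4, 8, 12 or 16 weeks, and the RNA of each mouse was hybridized to an Affymetrix mouse GeneChip of its own, which made 20 arrays. The labels give no treatment and no allele beyond those of the strain. C57BL/6J is the strain that served as the healthy counterpart of a congenic line with Sjögren's syndrome–like disease, and arrays of that line were not analysed here. Values are log2 signals, so that a difference of 1 is a doubling.

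Macrophages are phagocytes that settle in almost every tissue, some before birth and some later as blood monocytes. They depend on signals through the colony-stimulating factor 1 receptor, clear dying cells and take part in the growth and branching of glands. C1q is the recognition protein that starts the classical pathway of complement. It is built from 3 kinds of chain, made from C1qa, C1qb and C1qc, and unlike most complement proteins, which come from the liver, it is made mainly by macrophages and dendritic cells. In whole glands, fewer cells of a type and less RNA per cell cannot be told apart.

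The labelled tissue was borne out by its brightest markers. The secretory genes Prol1, Pip and Klk1 averaged 13.6, 12.74 and 12.85 on the log2 scale over the 20 arrays. In the wider lists of markers, 2 of 10 acinar genes and 2 of 7 duct genes had a median percentile below that of the median gene. The acinar gene Amy1 varied widely among mice, with 8.75 ± 3.03 at 4 weeks and 5.54 ± 2.54 at 8 weeks (SD, n = 5 each). Every mouse was labelled male, which the high Xist and the low Eif2s3y and Kdm5d of every array went against. Xist, the RNA of the inactive X chromosome, lay between 8.96 and 10.7 in all 20 arrays, at or above the 96.3 percentile of genes. Of 3 Y-linked genes, Eif2s3y lay between the 0.236 and 4.6 percentiles and Kdm5d between 12.4 and 31.2. Uty, between 30.9 and 59.4, did not stand low in every array. No array could be set apart from the others on this ground. Pairs of arrays correlated over all genes with r between 0.792 and 0.983. The spread of signal within an array, as the SD over its gene values, averaged 1.68 ± 0.145 at 4 weeks and 1.498 ± 0.0901 at 8 weeks, and then 1.64 ± 0.0273 at 12 weeks and 1.51 ± 0.139 at 16 weeks (SD, n = 5 each). The number of arrays limits the precision of every value below.

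The ages were compared in a limma fit over all 20 arrays, with p-values adjusted over all 18194 genes and a threshold of 0.05. Of the 10 genes, 1 passed at 8 weeks against 4 weeks, where 7.39% of all genes passed, 4.13% as lower and 3.26% as higher. That share rested on single mice. Of all 18194 genes, 1345 passed with all mice, but 14 passed without replicate 5 and 20 without replicate 4 at 4 weeks, 17 without replicate 3 and 22 without replicate 5 at 8 weeks, and 2 when only the arrays of 8 and 4 weeks were fitted, while leaving out any other mouse gave 790 to 2694. The 1 gene was Cd68. At an unadjusted p under 0.05 there were 3, all lower at 8 weeks (Cd68, Lyz2 and Mrc1), where 32.4% of all genes were that far apart. None of the 10 passed at 12 weeks against 8 weeks, where 0.0055% of all genes passed, nor at 16 weeks against 12 weeks, where 0.192% passed. At an unadjusted p under 0.05 there were 0 at 12 weeks against 8 weeks, where 18.8% of all genes were that far apart, and 1 at 16 weeks against 12 weeks, Cd163, where 14.2% were. In the comparison of 16 with 4 weeks again 0 passed, where 3.63% of all genes passed (660 genes, and 81 to 3003 without 1 mouse), and 3 were lower at an unadjusted p under 0.05 (Cd68, Lyz2 and Cd163), where 24.2% of all genes were that far apart. Over the 4 ages together, the F test of limma called 0 of the 10, with 2.6% of all genes called. The unadjusted p of this test was under 0.05 for Cd68, Lyz2 and Cd163, and for 25.9% of all genes. The 5 mice of the later age overlapped the 5 of the earlier age for all 10 genes in each comparison of 2 ages above, while they did not overlap for 5.75% of all genes at 8 weeks against 4 weeks, 5.34% at 12 weeks against 8 weeks, 2.65% at 16 weeks against 12 weeks and 3.07% at 16 weeks against 4 weeks.

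The mean signal of the 10 genes in a mouse averaged 6.02 ± 0.141 at 4 weeks and 5.83 ± 0.179 at 8 weeks, and then 5.86 ± 0.121 at 12 weeks and 5.75 ± 0.328 at 16 weeks (SD, n = 5 each). The median log2 fold change of the 10 was -0.23 at 8 weeks against 4 weeks, with 6 of 10 negative, and that of all genes was 0.05, with 45.2% negative. At 12 weeks against 8 weeks it was 0.02, against -0.05 for all genes. For 16 with 12 weeks it was -0.11, against -0.02 for all genes. For 16 with 4 weeks it was -0.30, with 8 of 10 negative, against 0.01 for all genes, with 49.1% negative. Leaving out 1 mouse moved these medians to between -0.37 and -0.083 at 8 weeks against 4 weeks, -0.047 and 0.095 at 12 weeks against 8 weeks, -0.24 and -0.024 at 16 weeks against 12 weeks, and -0.41 and -0.20 at 16 weeks against 4 weeks. A covariate for the spread within arrays gave medians of 0.013, -0.21 and 0.12 in the 3 comparisons of neighbouring ages, so that their sign turned. Csf1r, Adgre1, C1qb and Cx3cr1 stayed within 0.29 of 0 in each of these comparisons without the covariate.

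**Figure D1:**
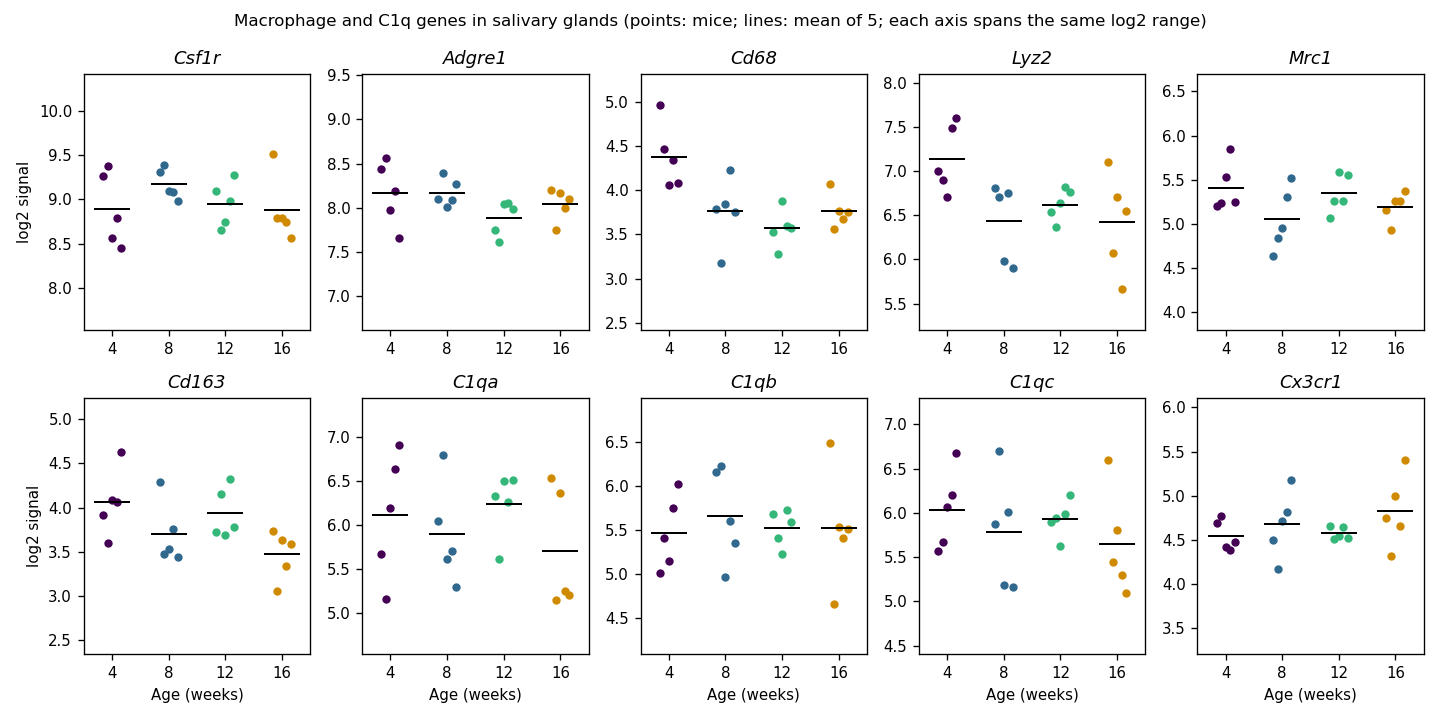
Log2 signal of the 10 genes in each mouse (points) with the mean of 5 mice (lines), by age in weeks, every panel spanning the same log2 range. Cd68 and Lyz2 had their highest means at 4 weeks, 4.38 and 7.14, while the panels of Csf1r, Adgre1 and Cx3cr1 show ages that overlap throughout.

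Csf1r encodes the receptor for colony-stimulating factor 1 and interleukin 34, on which most tissue macrophages depend. Its signals in ascending order were 8.45, 8.56, 8.79, 9.26 and 9.37 at 4 weeks and 8.98, 9.09, 9.09, 9.31 and 9.39 at 8 weeks, followed by 8.66, 8.75, 8.98, 9.10 and 9.27 at 12 weeks and 8.56, 8.75, 8.79, 8.79 and 9.52 at 16 weeks. The mice of all 4 ages overlapped, with the 8-week-old mice the closest together and 1 mouse at 16 weeks above the rest of its group. The log2 fold change at 8 weeks against 4 weeks was 0.29 ± 0.19 (standard error, adjusted p = 0.302 from limma), and at 16 weeks against 4 weeks it was -0.004 (95% interval -0.41 to 0.40), which turned to 0.81 with cyclic loess of the arrays (adjusted p = 0.107). Its 3 probe sets did not move alike and gave 0.29, -0.11 and 0.14 on the log2 scale at 8 weeks against 4 weeks, with limma's adjusted p at 0.315 or more.

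Adgre1 encodes F4/80, the surface protein by which mouse macrophages are most often stained. Its signals were 7.66, 7.98, 8.19, 8.44 and 8.56 at 4 weeks and 8.01, 8.08, 8.10, 8.27 and 8.40 at 8 weeks, followed by 7.61, 7.74, 7.98, 8.05 and 8.06 at 12 weeks and 7.74, 7.99, 8.10, 8.16 and 8.20 at 16 weeks. The means were within 0.29 of each other and all groups overlapped. At 8 weeks against 4 weeks the log2 fold change was 0.01, with a 95% interval of -0.32 to 0.33, and it turned to -0.03 when the arrays were centred on their medians. The lowest adjusted p of Adgre1 was that at 12 weeks against 8 weeks, 0.325 from limma, where the log2 fold change was -0.28.

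Cx3cr1, the receptor for fractalkine, marks monocytes and some resident macrophages. It lay at 4.39, 4.42, 4.48, 4.69 and 4.77 at 4 weeks and 4.17, 4.50, 4.72, 4.82 and 5.18 at 8 weeks, followed by 4.51, 4.52, 4.55, 4.65 and 4.66 at 12 weeks and 4.32, 4.66, 4.75, 5.00 and 5.40 at 16 weeks. The mice were farthest apart at 16 weeks, with an SD of 0.404, and closest together at 12 weeks, with 0.0720. The log2 fold change at 16 weeks against 4 weeks was 0.28 (95% interval -0.10 to 0.66, adjusted p = 0.358 from limma). The other probe set of Cx3cr1 gave 0.01 in the same comparison.

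Cd68, a glycoprotein of the lysosomal membrane of macrophages, was lower at 8 weeks. Its signals were 3.18, 3.76, 3.79, 3.84 and 4.23 at 8 weeks, against 4.06, 4.07, 4.33, 4.46 and 4.96 at 4 weeks. The highest mouse at 8 weeks stood within the range of the 4-week-old mice, and the other 4 stood below all of them. The mean was 3.76 ± 0.378 at 8 weeks and 4.38 ± 0.367 at 4 weeks (SD, n = 5 each), a log2 fold change of -0.62 ± 0.19 (standard error), or 0.651-fold (adjusted p = 0.0477 from limma).

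The mean of Cd68 was below that at 4 weeks at each later age. It lay at 3.27, 3.53, 3.57, 3.59 and 3.88 at 12 weeks and at 3.56, 3.67, 3.76, 3.76 and 4.07 at 16 weeks. It then differed by -0.19 on the log2 scale at 12 weeks against 8 weeks and 0.20 at 16 weeks against 12 weeks (adjusted p = 0.563 and 0.665 from limma). Between 16 and 4 weeks it was -0.61 ± 0.19, which did not pass (standard error, adjusted p = 0.0665 from limma). The comparison of 12 weeks with 4 weeks, added after the values had been seen, gave -0.81 ± 0.19 (standard error, adjusted p = 0.147 from limma). There the 5 mice at 12 weeks all stood below the 5 at 4 weeks, as they did for 0.78% of all genes, and 0.0934% of all genes passed the test.

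The call of Cd68 was a narrow one. It was kept in 4 of 20 fits that left out 1 mouse each, those without replicate 3 at 4 weeks, replicate 4 at 8 weeks, or replicate 1 or 2 at 16 weeks, and lost in the other 16, with an adjusted p of 0.0194 to 0.113 and a log2 fold change of -0.74 to -0.47. The signal of Cd68 was among the lower ones on the array, at a median percentile of 13.7 of all genes, a rank that depends on the probe set as well as on the transcript. A filter on signal at the 40th percentile removed the gene from the fit.

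Lyz2 encodes lysozyme M, made by macrophages and neutrophils. Its signals were 5.91, 5.98, 6.70, 6.75 and 6.81 at 8 weeks, against 6.71, 6.90, 7.002, 7.48 and 7.60 at 4 weeks, so that 2 mice at 8 weeks lay within the range at 4 weeks and the other 3 below it. The difference of -0.71 ± 0.25 on the log2 scale did not pass (standard error, adjusted p = 0.0695 from limma). By the relative difference of SAM (significance analysis of microarrays) at a q-value under 0.05, Lyz2 and Cd68 were the 2 genes of the 10 that were called, with q-values of 0.0462 and 0.0494, where 15.2% of all genes were called.

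At later ages Lyz2 lay at 6.36, 6.53, 6.64, 6.76 and 6.81 at 12 weeks and at 5.67, 6.07, 6.55, 6.70 and 7.11 at 16 weeks. The 16-week-old mice were the most spread out, with an SD of 0.562, against 0.384 at 4 weeks. The log2 fold change at 16 weeks against 4 weeks was -0.72 (limma's adjusted p = 0.0921). Lyz2 shares near-identical sequence with Lyz1, the lysozyme of Paneth cells in the gut, and the share of its signal that came from Lyz1 transcripts was not measured.

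Mrc1 and Cd163 encode scavenger receptors, the mannose receptor and the receptor for complexes of haemoglobin and haptoglobin. Mrc1 lay at 4.64, 4.84, 4.96, 5.31 and 5.52 at 8 weeks, against 5.20, 5.23, 5.25, 5.53 and 5.84 at 4 weeks, a difference of -0.36 on the log2 scale that was short of the threshold (limma's adjusted p = 0.143). At 12 weeks it lay between 5.07 and 5.59 and at 16 weeks between 4.94 and 5.37, both overlapping the range at 4 weeks.

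Cd163 lay at 3.60, 3.92, 4.07, 4.09 and 4.63 at 4 weeks and 3.44, 3.47, 3.53, 3.75 and 4.29 at 8 weeks, followed by 3.69, 3.73, 3.78, 4.15 and 4.32 at 12 weeks and 3.06, 3.34, 3.59, 3.63 and 3.74 at 16 weeks. Its groups overlapped at every pair of ages, with the 16-week-old mice lowest. On the log2 scale it differed by -0.46 at 16 weeks against 12 weeks (adjusted p = 0.306 from limma) and -0.59 at 16 weeks against 4 weeks (adjusted p = 0.0888 from limma). Cd163 was also among the lower signals of the array, at a median percentile of 14.1.

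Among the 10 genes, calls at 16 weeks against 4 weeks appeared when any 1 of 3 mice was left out. Without replicate 1 at 16 weeks, which had the highest mean of the 10 genes, 6.22, and the highest spread of signal of its group, 1.74, Cd68, Lyz2 and Cd163 all passed as lower (-0.69, -0.89 and -0.66 on the log2 scale, with limma's adjusted p at 0.0229, 0.0181 and 0.0382). Over all genes, 3003 passed in that fit and 660 passed with all 20 mice. Cd163 passed without replicate 2 at 4 weeks (adjusted p = 0.0413 from limma), and Cd68 passed without replicate 2 at 8 weeks (adjusted p = 0.0484 from limma).

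**Figure D2:**
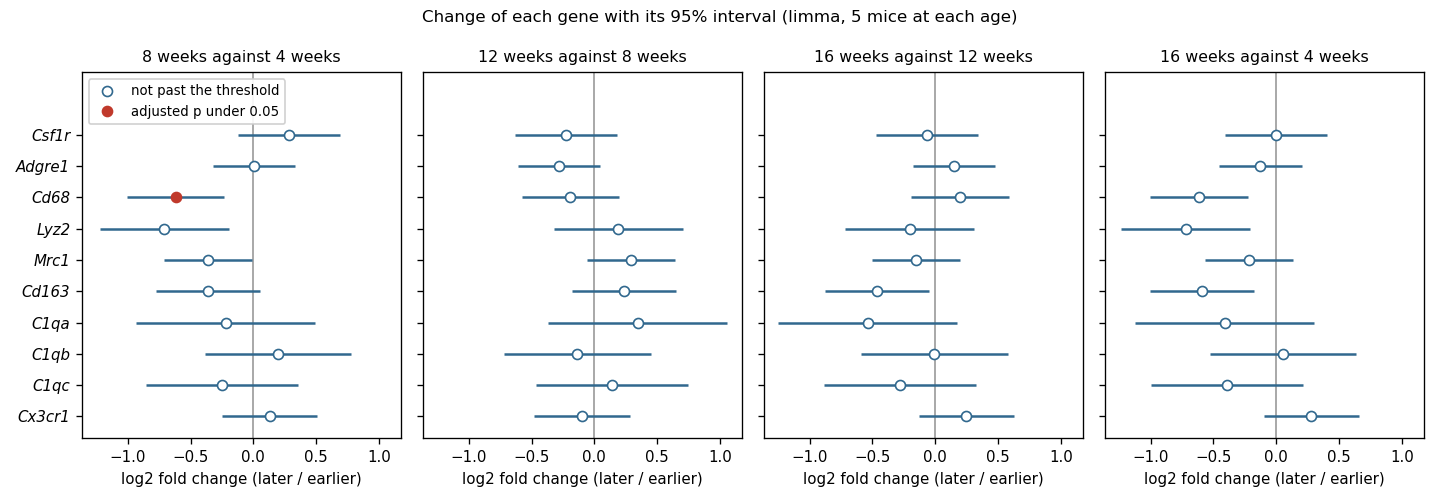
Log2 fold change of each of the 10 genes, later over earlier age, in 4 comparisons, with the 95% interval from limma and 5 mice at each age. The filled point is Cd68 at 8 weeks against 4 weeks (-0.62), the 1 change of the 40 that passed the test after adjustment over all genes.

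The 3 C1q genes are neighbours on chromosome 4, and none of them passed in any comparison. C1qa lay at 5.17, 5.67, 6.20, 6.63 and 6.90 at 4 weeks and 5.30, 5.62, 5.71, 6.04 and 6.79 at 8 weeks, followed by 5.62, 6.26, 6.32, 6.49 and 6.51 at 12 weeks and 5.16, 5.21, 5.25, 6.37 and 6.53 at 16 weeks. The range within an age was wider than any difference between ages, and at 16 weeks 3 mice lay low and 2 high. The log2 fold change at 16 weeks against 12 weeks was -0.54 with a 95% interval of -1.25 to 0.18 (adjusted p = 0.496 from limma), an interval that held 0.

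C1qc lay at 5.57, 5.67, 6.07, 6.21 and 6.67 at 4 weeks and 5.17, 5.18, 5.88, 6.02 and 6.69 at 8 weeks, followed by 5.62, 5.90, 5.94, 5.99 and 6.20 at 12 weeks and 5.09, 5.30, 5.44, 5.81 and 6.60 at 16 weeks. The 12-week-old mice were again the closest together, with an SD of 0.206. The log2 fold change at 16 weeks against 4 weeks was -0.39 (95% interval -0.99 to 0.22, adjusted p = 0.427 from limma), and a covariate for the array's spread turned it to 0.19. C1qa turned likewise in that comparison, to 0.26.

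C1qb lay at 5.01, 5.15, 5.41, 5.74 and 6.02 at 4 weeks and 4.97, 5.36, 5.60, 6.15 and 6.23 at 8 weeks, followed by 5.23, 5.41, 5.58, 5.68 and 5.73 at 12 weeks and 4.66, 5.41, 5.51, 5.53 and 6.48 at 16 weeks. Its direction depended on the probe set. At 8 weeks against 4 weeks the probe set with the highest mean gave 0.20, and the other 2 gave -0.40 and -0.22. At 16 weeks against 4 weeks the 3 gave 0.06, -0.44 and -0.27, and none passed when each probe set was fitted on its own (adjusted p = 0.928, 0.296 and 0.773 from limma).

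**Figure D3:**
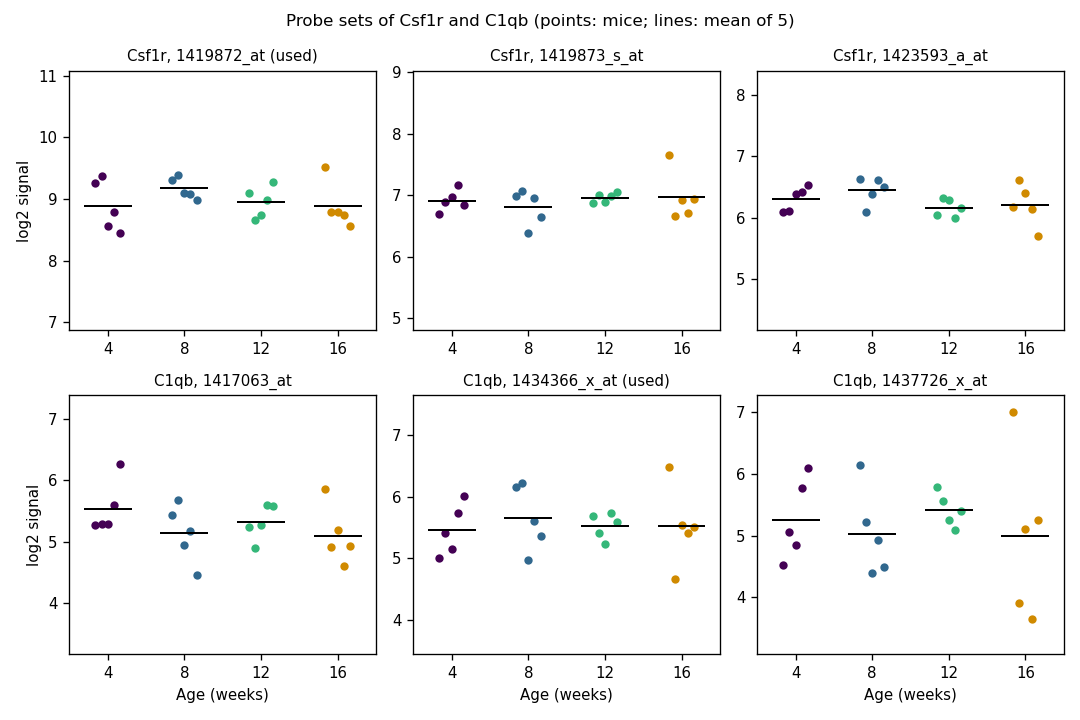
Log2 signal of the 3 probe sets of Csf1r (top) and of C1qb (bottom) in each mouse (points) with the mean of 5 mice (lines), by age in weeks, every panel spanning the same log2 range. The mean of the C1qb probe set used was higher at 8 weeks, 5.66, than at 4 weeks, 5.47, while the other 2 probe sets had lower means at 8 weeks (5.14 and 5.03) than at 4 weeks (5.54 and 5.26).

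Although the C1q genes did not separate the ages, they varied together among mice of the same age. With each value centred on the mean of its age, C1qa and C1qc correlated over the 20 arrays with r = 0.817 (permutation p = 0.00016, adjusted p = 0.0072; Spearman's rho = 0.792, permutation p = 0.00033, adjusted p = 0.013). C1qb and C1qc had r = 0.788 (permutation p = 0.0013, adjusted p = 0.027; rho = 0.746, permutation p = 0.0024, adjusted p = 0.02), and C1qa and C1qb had r = 0.685 (permutation p = 0.003, adjusted p = 0.027; rho = 0.699, permutation p = 0.0026, adjusted p = 0.02). All 45 pairs of the 10 genes were tested, with values permuted within ages and p-values adjusted over the 45. The 6 pairs that passed, by r and by rho alike, were those among Lyz2 and the 3 C1q genes.

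Lyz2 had r = 0.728 with C1qa (permutation p = 0.0028, adjusted p = 0.027; rho = 0.737, permutation p = 0.0017, adjusted p = 0.02). Its r was 0.769 for C1qb (permutation p = 0.0024, adjusted p = 0.027; rho = 0.818, permutation p = 0.00056, adjusted p = 0.013) and 0.735 for C1qc (permutation p = 0.004, adjusted p = 0.03; rho = 0.792, permutation p = 0.0014, adjusted p = 0.02). Among the pairs that did not pass, Csf1r and Adgre1 had the highest r, 0.648 (adjusted p = 0.071 by permutation). Within ages the r of that pair was 0.961 at 4 weeks and 0.312 to 0.384 at the other ages. Cd163 did not pass either, with r = 0.589 for Lyz2 and for C1qb (both adjusted p = 0.06 by permutation). For C1qa and C1qc its r was 0.434 and 0.437 (both adjusted p = 0.31 by permutation). Each of the 6 pairs that passed was also taken without the 2 arrays in which 1 of its genes lay farthest from the median. That gene was Lyz2 in its pairs, and C1qa or C1qb in the others, so that the arrays left out could differ between pairs. The 6 values of r then lay between 0.677 and 0.793. Within ages the relation of C1qa and C1qc was 0.916 at 4 weeks and 0.909 at 8 weeks, then -0.0474 at 12 weeks and 0.888 at 16 weeks, so that it did not show among the 5 mice at 12 weeks. That of C1qa and C1qb was likewise low at 12 weeks, 0.105, and 0.69 to 0.792 at the other ages. At 12 weeks Lyz2 had r = 0.396 with C1qb and 0.291 with C1qc, against 0.718 to 0.877 at the other ages, and 0.75 with C1qa.

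These relations went along with the spread of signal within the array. Centred on age over the 20 arrays, the r of a gene with that spread was 0.828 for Lyz2, 0.784 for C1qc, 0.763 for C1qa, 0.749 for C1qb and 0.708 for Cd163. It was 0.0444 for Csf1r, -0.00636 for Cd68, -0.115 for Mrc1, -0.23 for Cx3cr1 and -0.309 for Adgre1. Such values were common, since 28.8% of all genes had an r above 0.5 and 16.9% had one below -0.5. After the spread had been regressed out, C1qa and C1qc kept r = 0.544, C1qb and C1qc 0.488, and the other 4 of these 6 relations had r between 0.245 and 0.401. Some pairs outside the 6 then stood higher, with r = 0.697 for Csf1r and Adgre1, 0.685 for Adgre1 and Lyz2, and 0.571 for Adgre1 and C1qb. The r of C1qc and Cx3cr1 was -0.562. The values after this regression were not tested. The 10 genes thus did not vary as 1 group: over their 45 pairs, centred on age, r ranged from -0.52 (C1qc and Cx3cr1) to 0.817 with a median of 0.128.

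**Figure D4:**
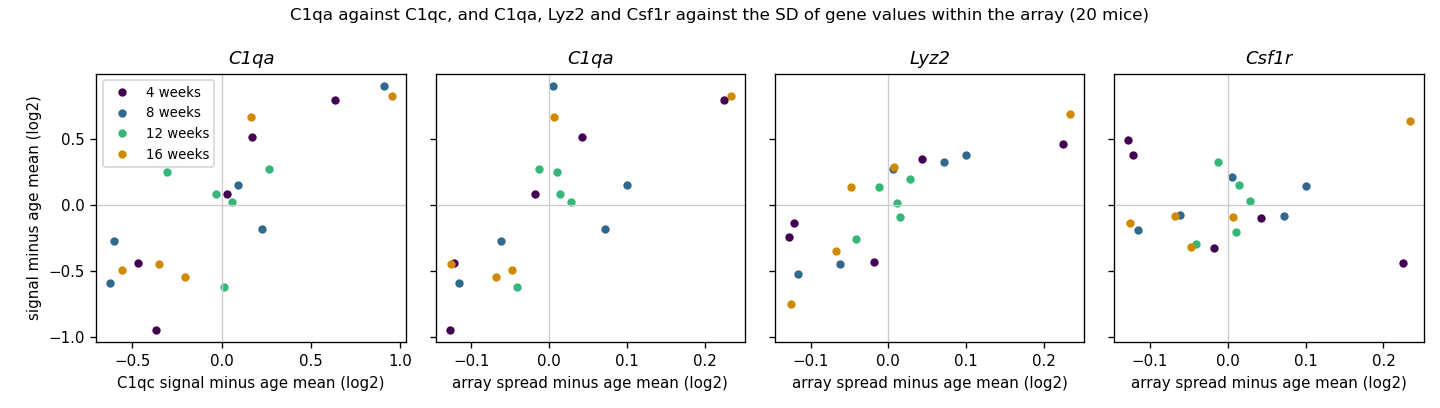
Signal of C1qa, Lyz2 and Csf1r in each of 20 mice after the mean of its age was taken off (log2, vertical axes), against the C1qc signal (first panel) or the SD of gene values within the array (other panels), both centred on age in the same way, with colours for ages. C1qa and Lyz2 followed the spread of the array (r = 0.763 and 0.828), and Csf1r did not (r = 0.0444).

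Promoters are shown for C1qb, C1qc and Lyz2, the genes that varied together and had an entry in the RefSeq table, and for Cd68, the gene that passed the test. The table held 7 of the 10 genes, on build GRCm38.p6. Each is 300 bases around the annotated start, written 5′ to 3′ on the strand of the gene. Capitals mark AGGAAG and GAGGAA, purine-rich motifs of the kind that the macrophage factor PU.1 binds, and TGAGTCA, the AP-1 motif, on either strand, and the first 2 motifs overlap where GAGGAAG occurs.
C1qb, chr4:136886151-136886450, minus strand: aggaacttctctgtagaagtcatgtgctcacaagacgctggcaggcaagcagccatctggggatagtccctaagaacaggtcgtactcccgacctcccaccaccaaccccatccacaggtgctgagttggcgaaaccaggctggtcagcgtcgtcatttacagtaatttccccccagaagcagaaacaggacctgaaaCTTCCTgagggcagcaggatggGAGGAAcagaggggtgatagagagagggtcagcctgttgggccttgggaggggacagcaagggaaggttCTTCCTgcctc
C1qc, chr4:136892865-136893164, minus strand: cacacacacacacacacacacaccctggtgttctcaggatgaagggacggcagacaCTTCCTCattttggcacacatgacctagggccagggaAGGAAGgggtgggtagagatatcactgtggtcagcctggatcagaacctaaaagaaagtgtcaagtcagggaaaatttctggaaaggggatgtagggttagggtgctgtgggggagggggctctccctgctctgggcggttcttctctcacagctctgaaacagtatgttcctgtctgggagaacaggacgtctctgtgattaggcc
Lyz2, chr10:117282223-117282522, minus strand: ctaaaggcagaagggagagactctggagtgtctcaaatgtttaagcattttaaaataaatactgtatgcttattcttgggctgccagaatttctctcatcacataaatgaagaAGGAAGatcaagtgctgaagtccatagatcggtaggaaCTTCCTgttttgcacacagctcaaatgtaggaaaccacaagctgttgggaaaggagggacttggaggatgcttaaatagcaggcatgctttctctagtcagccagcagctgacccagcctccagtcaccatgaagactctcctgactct
Cd68, chr11:69666121-69666420, minus strand: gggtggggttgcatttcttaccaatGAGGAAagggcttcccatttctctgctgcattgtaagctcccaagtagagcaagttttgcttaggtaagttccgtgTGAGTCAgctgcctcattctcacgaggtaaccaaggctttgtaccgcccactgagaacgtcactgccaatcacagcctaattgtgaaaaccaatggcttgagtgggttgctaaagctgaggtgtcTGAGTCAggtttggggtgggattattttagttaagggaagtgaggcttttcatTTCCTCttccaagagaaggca
AGGAAG was found 2 times each in the windows of C1qb, C1qc and Lyz2 and 0 times in that of Cd68. It was found at least 1 time in 4 of the 7 windows and in 35.4% of 32851 promoters. GAGGAA was found 1 time each for C1qb and C1qc and 2 times for Cd68. At least 1 match to it was held by 4 of the 7 windows and by 28.3% of promoters. TGAGTCA was found 2 times in the window of Cd68 and in no other of the 7, and in 5.2% of promoters. Mrc1 held AGGAAG 3 times and GAGGAA 3 times, while Cd163 and Cx3cr1 held none of the motifs. A match says only that the letters are there.

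Other genes of macrophages and monocytes were taken from a list of 32, of which 29 were measured. At 8 weeks against 4 weeks 1 was lower and 0 were higher by limma, and the median log2 fold change was 0.20. The 1 gene was Lgmn, a lysosomal protease that averaged 3.27 ± 0.255 at 8 weeks and 4.16 ± 0.739 at 4 weeks (SD, n = 5 each), with no overlap of the groups, as for 1.96% of all genes in this direction (log2 fold change -0.89 ± 0.26, standard error, adjusted p = 0.0450). At an unadjusted p under 0.05 there were 6 higher and 1 lower, where 16.9% of all genes were higher and 15.5% lower. None of the 29 passed in the other comparisons, where the medians were -0.16 at 12 weeks against 8 weeks, 0.07 at 16 weeks against 12 weeks and 0.08 at 16 weeks against 4 weeks. Lgmn was called in 9 of 20 fits that left out 1 mouse each (adjusted p of 0.0279 to 0.151), and its signal, at the 11.3 percentile of mean signal, was below the filter that also removed Cd68.

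Of the ligands and chemokines that act on macrophages, 11 of 11 were measured and 0 passed in any comparison. Csf1 and Il34, the ligands of Csf1r, differed by -0.06 and -0.16 on the log2 scale at 8 weeks against 4 weeks (limma's adjusted p = 0.779 and 0.612). Cx3cl1, the ligand of Cx3cr1, differed by 0.02 (limma's adjusted p = 0.926).

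The rest of the complement system was measured by 25 of 31 listed genes. At 8 weeks against 4 weeks 2 were higher and 0 lower, with a median log2 fold change of 0.19, and at an unadjusted p under 0.05 there were 11 higher and 2 lower, against the same 16.9% and 15.5% of all genes. C6, a component of the membrane attack complex, averaged 6.03 ± 0.497 at 8 weeks and 5.23 ± 0.267 at 4 weeks (log2 fold change 0.80, adjusted p = 0.0327 from limma). Masp2, a protease of the lectin pathway, averaged 4.64 ± 0.451 at 8 weeks and 3.99 ± 0.210 at 4 weeks (log2 fold change 0.65, adjusted p = 0.0402 from limma). The proteases that join C1q in the C1 complex did not pass, at -0.06 for C1ra and -0.65 for C1s1 on the log2 scale (limma's adjusted p = 0.882 and 0.0527). At 16 weeks against 4 weeks Cfp, or properdin, which stabilizes the convertase of the alternative pathway, was the 1 gene that passed, with 6.46 ± 0.288 at 16 weeks and 5.79 ± 0.321 at 4 weeks (log2 fold change 0.66, adjusted p = 0.0483 from limma), and the median was 0.20.

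Among 8 receptors and binding proteins of C1q, Cd93 was higher at 8 weeks, with 5.64 ± 0.348, against 4.79 ± 0.366 at 4 weeks (log2 fold change 0.85, adjusted p = 0.0425 from limma). Cd93 was first described as a C1q receptor on phagocytes and is abundant on endothelium. At 16 weeks against 4 weeks Calr and C1qbp were lower. Calr, calreticulin, a chaperone of the endoplasmic reticulum, averaged 9.82 ± 0.725 at 16 weeks and 11.1 ± 0.545 at 4 weeks (log2 fold change -1.29, adjusted p = 0.0456 from limma). C1qbp, a mitochondrial protein that binds C1q, averaged 9.31 ± 0.578 at 16 weeks and 10.5 ± 0.338 at 4 weeks (log2 fold change -1.15, adjusted p = 0.0434 from limma). Both are expressed in most cells. No gene of these 2 lists passed at 12 weeks against 8 weeks or at 16 weeks against 12 weeks.

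Markers of other cells moved beside these genes. Of 8 genes shared by all leukocytes, Lcp1, an actin-bundling protein, was lower at 8 weeks and at 16 weeks against 4 weeks (log2 fold changes -1.22 and -1.18, adjusted p = 0.0309 and 0.0415 from limma). The summed level of that list, as the mean of its genes, ranged from 5.78 to 6.25 at 8 weeks and from 5.94 to 6.19 at 4 weeks, and Ptprc, or CD45, had a log2 fold change of 0.05 at 8 weeks against 4 weeks. At 12 weeks against 8 weeks Ptprc was at 0.75 and Lcp1 at 1.14 on the log2 scale (adjusted p = 0.137 and 0.129 from limma), with no overlap for Ptprc and a SAM q-value of 0.0382 and 0.0636, where 4.42% of all genes had one under 0.05. At 16 weeks against 12 weeks they were at -0.61 and -1.10 (adjusted p = 0.241 and 0.153 from limma). Of 8 neutrophil genes, whose cells also hold Lyz2, 0 passed, with a median log2 fold change of 0.40 at 8 weeks against 4 weeks and a mean level of 5.17 to 5.75 at 8 weeks, against 4.74 to 5.35 at 4 weeks. Of 8 T cell genes, Cd3e was higher at 8 weeks (log2 fold change 0.41, adjusted p = 0.0446 from limma). Fibroblast genes had the most calls of these lists, 3 of 7 lower at 8 weeks (Col1a2, Col3a1 and Lum) and 3 of 7 lower at 16 weeks (Col1a1, Col3a1 and Lum), both against 4 weeks, with Col3a1 at -2.21 and -2.32 on the log2 scale. The 10 acinar genes had a median of -1.44 at 8 weeks against 4 weeks, 1 of them lower, Lpo (-1.61, adjusted p = 0.0449 from limma), which was also lower at 16 weeks against 4 weeks (adjusted p = 0.0234 from limma). The 8 housekeeping genes had medians of -0.48 at 8 weeks and -0.75 at 16 weeks against 4 weeks, with B2m lower at 8 weeks (-1.06), as was the smooth muscle gene Myh11 of the myoepithelial list (-1.12). Lists for dendritic cells, mast cells, B cells, blood, endothelium and the interferon response had 0 calls in the comparisons of 2 ages. Of the calls in these other lists, those of Col3a1 alone were kept in every fit that left out 1 mouse. Of the 12 genes called at 8 weeks against 4 weeks, 0 passed with only the arrays of these 2 ages, and 1, Col3a1, after adjustment for the array's spread, and each was called in 6 to 20 of the 20 fits that left out 1 mouse. C6 was called in 16 of these fits, Masp2 in 13, Cd93 in 10 and Cd3e in 6. Of the 8 genes called at 16 weeks against 4 weeks, 1 passed in each of those 2 settings, again Col3a1, and each was called in 4 to 20 fits, Cfp in 4, Calr in 7 and C1qbp in 9. The part of these shifts in the levels of the macrophage and C1q genes was not tested.

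For the mean of the 10 genes in each array, every gene was centred on its own mean but not scaled. Genes that varied more thus weighed more in it. The genes most like this mean were found by correlation over the 20 arrays and are given as a description. They were Ptdss1, Chmp1a, Mlycd, Dnajc2 and Grhpr, with r between 0.889 and 0.908, where the median over all genes was 0.0105. With values centred on each age, they were Zfp704, Cct3, H2-Ab1, Chmp1a and Bgn, with r between 0.901 and 0.938. Of these, H2-Ab1 encodes a class II histocompatibility chain of antigen-presenting cells, Bgn a matrix proteoglycan and Cct3 a subunit of a chaperonin. The r of these 5 genes with the spread of signal within the array was 0.703 to 0.859, and that of the mean of the 10 genes was 0.777.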

How the data were processed

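RNA of SGs from 20 mice, 5 at each of 4 ages, was measured on 1 Affymetrix array each. The authors deposited log2 signals of 45101 probe sets after RMA (background correction and quantile normalization) in Expression Console, and which arrays were normalized together is not given in the sources used here. They were used as deposited. The annotation gave 1 symbol to 34958 probe sets, several to 932 and none to 9211, and for each of 18194 genes the brightest probe set was kept, as in the study's methods. The fit was made in limma 3.58.1 (R 4.3.3) on all 20 arrays with 1 mean per age, and the Benjamini-Hochberg adjustment ran over all genes, with calls at an adjusted p under 0.05. Labels name the mice as biological replicates. The genes and lists were chosen with earlier results of these data known. Named were the 10 genes, called genes of the other lists (up to 5 a list and direction), and the 5 genes most like the mean of the 10, with and without centring on age. Lists of other cell types, not all of which are named in the text, gave markers. Correlations were tested with 100000 permutations within ages (Python 3.11.15, numpy 2.4.6, scipy 1.17.1). Scripts were tested on simulated data.

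The alternatives changed the normalization (arrays centred on their medians, or cyclic loess), the probe sets (their mean per gene, or each one fitted alone), the genes (those above the 40th percentile of mean signal), the design (replicate numbers as a block, only the 2 ages compared, array weights, or a covariate for the spread of signal within the array) and the test (the q-value of SAM from 100 permutations, or limma-trend with robust variances). Fits were also made without each of the mice. The comparison of 12 with 4 weeks was added after seeing the data.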

Additional observations from a re-analysis of the deposited data

Results flagged for a closer look

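Among the 40 groups of 5 mice (10 genes at 4 ages), 2 held a mouse far from the others, judged by its gap to the nearest mouse as a share of the range of the group, with a critical value of 0.71. Chance flags about 1 in 20 such groups. At 12 weeks the lowest mouse for C1qa, replicate 2, had a signal of 5.62 and the nearest had 6.26, a gap of 0.723 of the range. At 16 weeks the highest mouse for Csf1r, replicate 1, had a signal of 9.52 and the nearest had 8.79, a gap of 0.755 of the range. In this mouse 1 of the other probe sets of Csf1r was also the highest of its group, at 7.65, and the other was not, at 6.17.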

How the results depend on the processing

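At 8 weeks against 4 weeks the number of the 10 genes called by limma was 0, in place of 1, with the filter at the 40th percentile, the replicate block, arrays of 2 ages only, array weights, a covariate for the spread of signal, and each probe set on its own, and it was 2 by the q-value of SAM. The adjusted p of Cd68 in these limma fits was 0.0609 with the replicate block, 0.118 with arrays of 2 ages only, 0.089 with array weights and 0.324 with the spread as a covariate, where its log2 fold change was -0.62 and 16 genes of all were called. Leaving out 1 mouse gave 0 to 2 genes at 8 weeks against 4 weeks, 0 to 3 at 16 weeks against 4 weeks and 0 to 2 over the 4 ages. At 16 weeks against 4 weeks 1 gene, Cd68, was called with cyclic loess and with array weights (adjusted p = 0.0454 and 0.0323). Over the 4 ages 1 was called with median centring, cyclic loess, limma-trend and array weights. The replicate numbers did not pair the mice, as 8 of 30 pairs had r above 0.1 and 7 correlated best with their own number, and the replicate block took the count of all genes called to 245, against 1345 without it, at 8 weeks against 4 weeks.

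When the spread within arrays was a covariate, the median of the 10 genes was 0.013 at 8 weeks against 4 weeks, -0.21 at 12 weeks against 8 weeks and 0.12 at 16 weeks against 12 weeks. Some fits could not turn a sign. The replicate block, arrays of 2 ages only, SAM and limma-trend leave the log2 fold change as it was, as does leaving out a mouse of another age. The sign turned in 48 of 1188 fits of single genes, none of them called, and in at least 1 fit for 20 of the 40 changes. With this covariate it turned at 8 weeks against 4 weeks for Adgre1 (-0.113), Cd163 (0.00414), C1qa (0.51) and C1qc (0.38), at 12 weeks against 8 weeks for Lyz2 (-0.25), Cd163 (-0.0576), C1qa (-0.24) and C1qc (-0.36), at 16 weeks against 12 weeks for Lyz2 (0.20), C1qb (0.41) and C1qc (0.17), and at 16 weeks against 4 weeks for Csf1r (0.0166), C1qa (0.26) and C1qc (0.19). Median centring turned Adgre1 at 8 weeks against 4 weeks (-0.0311) and C1qb at 16 weeks against 12 weeks (0.000686), and array weights turned Adgre1 at 8 weeks against 4 weeks (-0.046). Cyclic loess turned Csf1r (0.68) and C1qb (0.0199) at 16 weeks against 12 weeks, and Csf1r (0.81) and Adgre1 (0.46) at 16 weeks against 4 weeks. The mean of probe sets turned C1qb at 8 weeks against 4 weeks (-0.14), 12 weeks against 8 weeks (0.14) and 16 weeks against 4 weeks (-0.22). Leaving out 1 mouse gave ranges that crossed 0 for Adgre1 at 8 weeks against 4 weeks (-0.12 to 0.10), for C1qb (-0.31 to 0.00713), C1qc (-0.0112 to 0.37) and Cx3cr1 (-0.22 to 0.0269) at 12 weeks against 8 weeks, for Csf1r (-0.23 to 0.0122) and C1qb (-0.25 to 0.21) at 16 weeks against 12 weeks, and for Csf1r (-0.16 to 0.12) and C1qb (-0.19 to 0.27) at 16 weeks against 4 weeks. The cause of these changes was not tested.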
